A study of Mus musculus with 19 samples.

Results

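The intermediate filament and lamin genes described here are Gfap, Vim, Nes, Synm, Plec, Lmna, Lmnb1 and Lmnb2. They were chosen by name, by matching each symbol to the gene symbols of the deposited expression table, and all 8 were found among its 60567 listed genes. RNA was sequenced from hippocampal cells that had been separated by FACS, taken from 9 month-old male C57bl6 mice (C57BL/6 J in the study's methods). GFP+ astrocytes came from WT-GFP (7 samples), APP-GFP (4 samples) and APP-SOCS3 (5 samples) mice, and GFP- cells came from WT-GFP mice only (3 samples). APP mice are a transgenic model of Alzheimer's disease that expresses, among its transgenes, an App chimera of mouse and human sequence bearing the Swedish mutations, and WT mice are their non-transgenic littermates. All mice had received adeno-associated virus in the CA1 region, encoding GFP alone in the WT-GFP and APP-GFP groups and both GFP and SOCS3 in the APP-SOCS3 group, at equal total viral load. SOCS3 is an endogenous inhibitor of the JAK2-STAT3 cascade. Both transgenes were driven by gfaABC1D, a promoter derived from that of GFAP, so the sort itself relied on GFAP promoter activity and the GFP- cells still held non-infected astrocytes beside microglia, neurons and oligodendrocyte precursor cells. For the GFP+ groups the study gives as many mice as there are samples, while its methods describe separate sorting of each mouse's hippocampi, and the labels tie no sample to a mouse. Where samples of the same group shared a mouse, p-values would be too small. GFP+ and GFP- samples of WT-GFP mice may also share mice, a pairing that the main tests did not use and whose effect on p-values is not known.

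Intermediate filaments are the rope-like part of the cytoskeleton and, as lamins, form the meshwork under the nuclear envelope. In mature astrocytes the main subunits are GFAP and vimentin (Vim), with which nestin (Nes) and synemin (Synm) co-assemble, while plectin (Plec) ties filaments to actin, microtubules and membranes. Raised GFAP and vimentin are classical marks of astrocyte reactivity, and GFAP is a known target of STAT3. Lmna encodes the A-type lamins, which stiffen the nucleus, and Lmnb1 and Lmnb2 encode the B-type lamins.

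Since the study inhibited a STAT3 pathway, the region around the Gfap start is shown, with the palindromes that STAT factors are known to bind. Gfap lies on the minus strand of chromosome 11, from 102887337 to 102897200 of mm10. RefSeq windows of 300 bases (250 before and 50 after the start, GRCm38.p6) were found for 6 of the 8 genes, with a second window for Lmna and for Lmnb2. The motif TTCNNNNGAA was found once, from base -115 to base -106 of Gfap, and TTCNNNGAA once, from base -2 to base 7 of Gfap, where base 1 is the start. Each motif reads the same on both strands, and the matches do not overlap. The other 7 windows held neither. Over all 32851 windows, 6.95% held TTCNNNNGAA and 8.3% held TTCNNNGAA, so a match alone is not rare. Bases outside these windows were not searched, and binding of STAT3 at the matches was not tested. The capitals mark the matches, in the 250 bases before the start (chr11:102897201-102897450, minus strand) and in 29 bases around it (chr11:102897184-102897212, minus strand).
Gfap, 250 bases before the start: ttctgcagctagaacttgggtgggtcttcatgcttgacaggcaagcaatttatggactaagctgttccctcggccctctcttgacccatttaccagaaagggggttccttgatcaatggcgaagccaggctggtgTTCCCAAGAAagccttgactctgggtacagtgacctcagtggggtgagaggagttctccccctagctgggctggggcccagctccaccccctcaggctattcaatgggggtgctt
Gfap, bases around the start: atgggggtgcTTCCAGGAAgtcaggggca

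The values are normalized read counts, called levels here. Totals of 19331876 to 32621917 reads on genes were recovered per sample. GFP- samples had 30807 to 31897 genes with reads, but 4 of the 16 GFP+ samples had fewer than 20000 (WT-GFP replicates 1, 2 and 3 and APP-GFP replicate 2, 15575 to 19198 genes). These 4 libraries held 7 of the 13 values of 0 among the 128 values of the 8 genes in GFP+ samples, and a value of 0 allows a level of up to 2.27 to 3.53 (3 reads, counting error only, since reads amplified by PCR are not independent molecules). Socs3 levels were 19463 ± 10281 (SD, n = 5) in APP-SOCS3, 1079 ± 493 (n = 4) in APP-GFP and 834 ± 269 (n = 7) in WT-GFP astrocytes, with no overlap between APP-SOCS3 and either other group. GFP- cells, which carry no SOCS3 vector, had 14611 ± 3831 (n = 3). App, which the transgene of both APP groups contains, had 4385 ± 1258 in WT-GFP, 8215 ± 3353 in APP-GFP and 3882 ± 1502 in APP-SOCS3 astrocytes. App passed as higher in APP-GFP than in WT-GFP (exact permutation p = 0.0424) but not in APP-SOCS3 (exact permutation p = 0.611), although both groups are labelled as transgenic. It passed as lower in APP-SOCS3 than in APP-GFP (log2 fold change -1.04, limma p = 0.0123, exact permutation p = 0.0635). GFP- cells of WT-GFP mice, which lack the transgene, had 38552 ± 4060 of App (n = 3). How transgene reads were counted is not given. Each of 14 astrocyte markers (Aldoc and Gja1 the most abundant) was higher in the GFP+ cells.

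**Figure D1:**
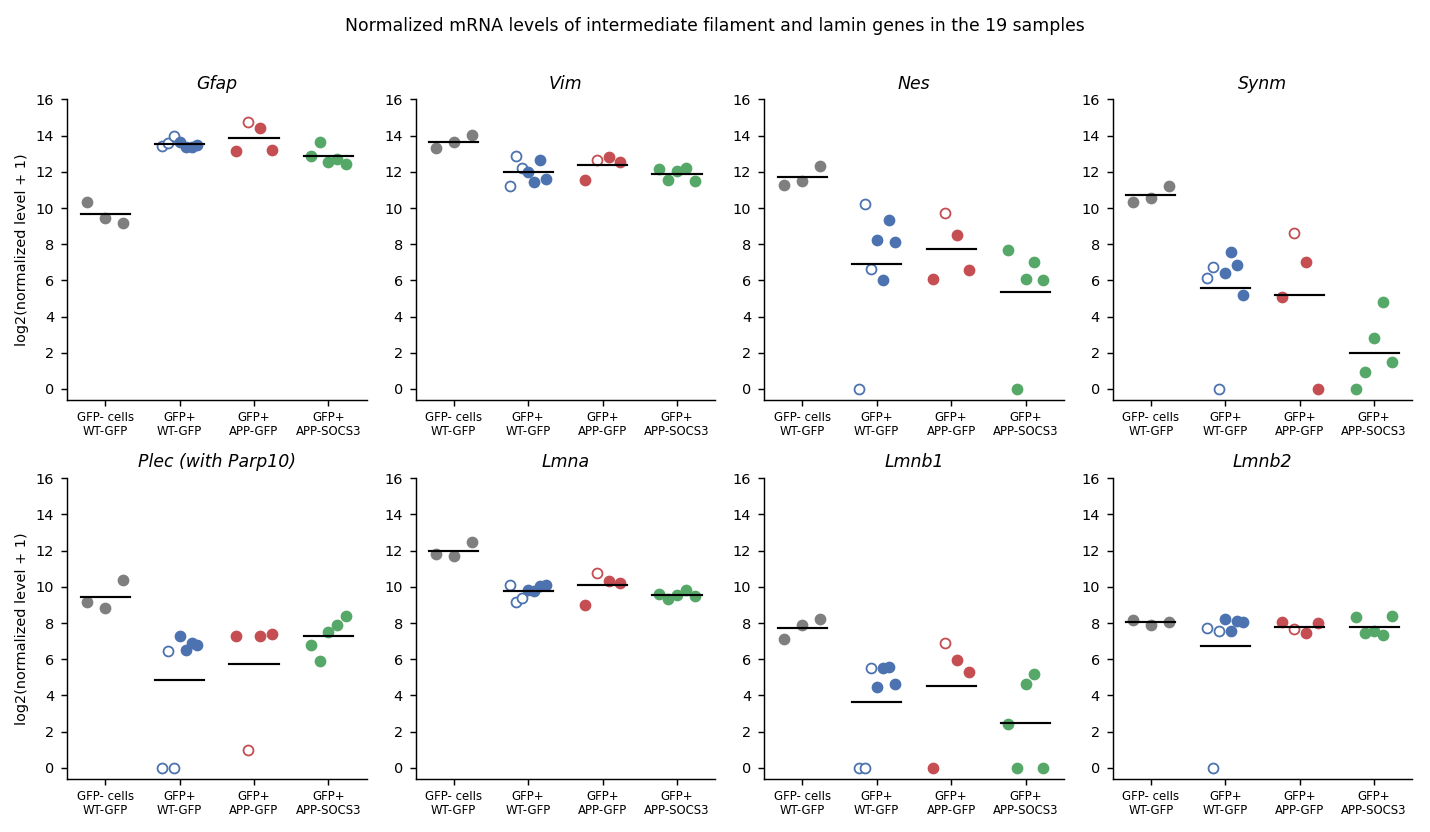
Points give log2(level + 1) of each gene in each sample, horizontal bars the group means of these log2 values, and open points the 4 GFP+ libraries with fewer than 20000 genes detected. Gfap is the only gene whose GFP+ samples all lie above the GFP- samples, and 7 of the 13 GFP+ values at 0 are open points.

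Gfap, Vim and Lmna were read in every GFP+ sample, and the other members were not. Over the 16 GFP+ samples more than 3 reads were found in 15 samples for Lmnb2, 14 for Nes, 13 for Plec and 11 each for Synm and Lmnb1. Levels of different genes are compared per kilobase of merged GENCODE exons, from 2.96 kb for Lmnb1 to 22.2 kb for the entry that holds Plec. The lengths over which the reads were counted are not given, so these values only set an order. Percent shares computed from them depend on the lengths assumed and are not shares of transcripts.

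In every GFP+ sample Gfap exceeded Vim and Vim exceeded Lmna, with no overlap between these neighbours within a group. Lmna was the third by its mean in each group, but Nes was above it in WT-GFP replicate 2, and the ranges of Lmna and Nes overlapped in WT-GFP and APP-GFP astrocytes. Levels per kilobase in WT-GFP astrocytes were 2860.2 ± 461 for Gfap (SD, n = 7), 937 ± 405 for Vim and 153 ± 35.9 for Lmna. Nes (56.9 ± 64.9) and Lmnb2 (47.3 ± 23.1) came next with overlapping ranges, and Nes exceeded Lmnb2 in only 2 of 7 samples. Synm (10.8 ± 7.68), Lmnb1 (8.62 ± 6.82) and Plec (3.57 ± 2.66) were lowest and overlapped. APP-GFP astrocytes had the same first 3 genes, with 4007 ± 2164 for Gfap (n = 4), 1191 ± 379 for Vim and 204 ± 88.1 for Lmna. In APP-SOCS3 astrocytes these were 1847 ± 698 (n = 5), 818 ± 193 and 131 ± 17.9, and Synm was last with 0.911 ± 1.45.

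In GFP- cells the order was different and Vim was first. Vim had 2788 ± 680 per kilobase (n = 3), followed by Lmna (724 ± 222) and Nes (548 ± 225), whose ranges overlapped. Synm (218 ± 74.2) and Gfap (204 ± 92.2) overlapped too, and Gfap exceeded Synm in 1 of 3 samples. Of the summed level per kilobase of the 4 filament subunits, Gfap made up 74.8% ± 8.60 in WT-GFP astrocytes, 74.4% ± 7.64 in APP-GFP, 67.7% ± 9.12 in APP-SOCS3 and 5.95% ± 3.80 in GFP- cells. Vim made up 23.6% ± 7.28, 24.5% ± 8.28, 31.7% ± 8.79 and 74.1% ± 2.67 in the same groups. The Gfap share differed between GFP+ astrocytes and GFP- cells with no overlap (exact permutation test, two-sided, p = 0.0167, the smallest that 7 samples against 3 allow, 0.0667 after Benjamini-Hochberg adjustment over the 4 comparisons). It did not pass the test between GFP+ groups (exact p from 0.212 to 0.818). These shares were computed after the levels had been seen.

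**Figure D2:**
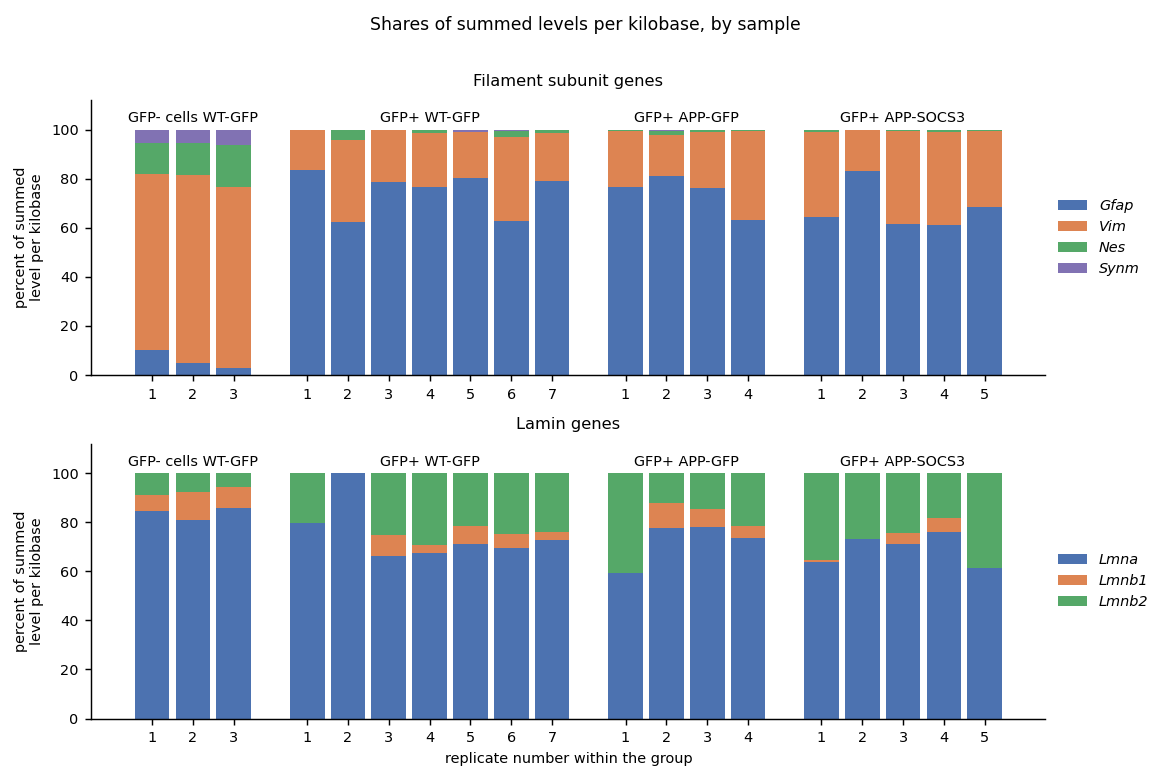
Bars give, for each of the 19 samples, the percent of the summed level per kilobase taken by each filament subunit (top) and each lamin (bottom). Gfap fills between 61.0% and 83.5% of the top bars in GFP+ samples and at most 10.2% in GFP- samples, while Lmna fills most of every bottom bar.

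Among the lamins, Lmna made up most of the summed level per kilobase in every group. Its share was 75.2% ± 11.8 in WT-GFP (n = 7), 72.2% ± 8.93 in APP-GFP (n = 4) and 69.2% ± 6.33 in APP-SOCS3 astrocytes (n = 5), and 83.8% ± 2.65 in GFP- cells (n = 3). The WT-GFP value includes replicate 2, at 100%, in which no read of Lmnb1 or Lmnb2 was found. No comparison of these shares passed the test (exact permutation p from 0.317 to 0.752).

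The first comparison asks how GFP+ astrocytes differ from the other hippocampal cells of WT-GFP mice. Gfap was 14.0-fold higher in GFP+ astrocytes, while 6 of the other 7 members were lower, and only Lmnb2 passed in neither direction. To pass, a gene needed an unadjusted limma p of no more than 0.05 on log2(level + 1) and a change of 1.5-fold or more. Of the 26709 genes tested 42.8% passed, 9.25% as higher and 33.5% as lower, and the median over all genes was -1.31 on the log2 scale, so lower levels were common. The 7 genes that passed were also those with no overlap between the 7 GFP+ and 3 GFP- samples, which held for 34.8% of all genes. After adjustment over all genes tested 4 members stayed under 0.05 (31.9% of all genes), namely Gfap, Vim, Synm and Lmna. Without WT-GFP replicates 1, 2 and 3 the count of members passing was again 7, but fitted log2 differences were smaller for Nes (-3.78 in place of -4.77), Synm (-4.21 in place of -5.16), Plec (-2.60 in place of -4.62) and Lmnb1 (-2.71 in place of -4.08). In sorted cell pools, fewer cells of a type and less RNA per cell cannot be told apart.

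Gfap levels were 1302, 709 and 571 in the 3 GFP- samples and from 10570.4 to 16032 in the 7 GFP+ samples (median 11308). Every GFP+ sample thus lay far above every GFP- sample. The difference of mean log2 levels was 3.88 (SE 0.24, limma adjusted p = 7.05e-06). GFP expression depended on a GFAP-derived promoter, so the sort and the Gfap level are not independent, and the part of the sort in this difference was not tested. A long non-coding RNA annotated on the other strand (Gm26668) spans Gfap, and the library kit does not mark strand, so its reads could not be told apart.

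Vim (chr2:13573952-13582826, plus strand), which builds filaments in many non-neuronal cells, went the other way. Its levels were 10295, 12698 and 16678.5 in GFP- samples and from 2366 to 7465 (median 4081) in GFP+ samples. The highest GFP+ sample, WT-GFP replicate 2, was still below the lowest GFP- sample. Mean levels were 2.97-fold higher in GFP- cells, with a log2 fold change of -1.66 (SE 0.35, limma adjusted p = 0.00451). The ratio of Gfap to Vim levels was 3.10 ± 1.10 (n = 7) in GFP+ astrocytes and 0.0722 ± 0.0483 (n = 3) in GFP- cells, with no overlap (exact permutation p = 0.0167).

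Nes (chr3:87971066-87980449, plus strand) and Synm (chr7:67730161-67759743, minus strand), subunits that need a partner such as vimentin to form filaments, had large fitted log2 differences toward GFP- cells. Nes had 2496, 2882 and 5165 in GFP- samples and from 0 to 1174 (median 274) in GFP+ samples. Synm had 1306, 1487 and 2404 in GFP- samples and from 0 to 189 (median 83.6) in GFP+ samples. For both genes the highest GFP+ sample was below the lowest GFP- sample. Mean levels of Synm were 20.3-fold higher in GFP- cells (log2 fold change -5.16, SE 1.36, limma adjusted p = 0.0154) and those of Nes 9.62-fold higher (-4.77, SE 1.76, limma adjusted p = 0.059). Because 1 GFP+ sample had no read of each gene, the fitted values depend on the pseudocount, and Nes no longer passed with a pseudocount of 0.1 (-5.25) or without GFP- replicate 2 (-4.88) or 3 (-4.46), while Synm still did. Synm overlaps Ttc23 in the annotation, and their reads could not be told apart by strand.

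Plec (chr15:76170974-76243441, minus strand), the linker, was read together with the neighbouring gene Parp10 as a single entry. It had 578, 448 and 1332 in GFP- samples and from 0 to 156 (median 89.1) in GFP+ samples, without overlap. Mean levels were 9.91-fold higher in GFP- cells, with a log2 fold change of -4.62 (SE 1.78, limma adjusted p = 0.0693). Leaving out GFP- replicate 1 (-4.76), 2 (-4.94) or 3 (-4.16), or a pseudocount of 0.1 (-5.57), ended the call of Plec.

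Lmna (chr3:88481149-88503352, minus strand), the A-type lamin gene, showed the most precise difference after Gfap. It had 3663, 3305 and 5705 in GFP- samples and from 570.05 to 1108 (median 917) in GFP+ samples. Mean levels were 4.72-fold higher in GFP- cells, with a log2 fold change of -2.23 (SE 0.27, limma adjusted p = 1.03e-04). Lmnb1, on chromosome 18, had 136, 239 and 294 in GFP- samples and from 0 to 45.6 (median 23.7) in GFP+ samples. The B-type lamin thus also differed without overlap (log2 fold change -4.08, SE 1.46, limma adjusted p = 0.0537). Without GFP- replicate 2 (-3.99) or 3 (-3.84), or with a pseudocount of 0.1 (-5.05), Lmnb1 did not pass. Lmnb2 (chr10:80901364-80918245, minus strand) was the exception among the lamins, with 289, 232 and 268 in GFP- samples and from 0 to 293 (median 209) in GFP+ samples. The groups overlapped (log2 fold change -1.29, 95% confidence interval -4.75 to 2.17, exact permutation p = 0.25), and without WT-GFP replicate 2, which had no read of it, the log2 fold change was -0.17.

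Markers of several other cell types differed in the same direction as these 6 genes. The summed level of 13 endothelial genes (Cldn5 highest) was 154053 to 233567 in GFP- and 4610 to 42237 in GFP+ WT-GFP samples, that of 10 mural cell genes (Vtn and Acta2 highest) was 126478 to 167756 and 3572 to 34369, and that of 14 microglial genes was 135743 to 226631 and 12963 to 48551. All genes of the 3 lists passed as lower in the GFP+ cells. Of 6 genes of dividing or immature neural cells, such as Sox11, all were lower too, with sums of 1106 to 1402 in GFP- and 128 to 464 in GFP+ samples. Oligodendrocyte and ependymal markers did not share this pattern. Of 9 oligodendrocyte genes tested 3 passed as lower and 2 as higher, with sums of 7087 to 8701 in GFP- and 5065 to 7635 in GFP+ samples, and 0 of 4 ependymal genes passed. None of the endothelial, mural, microglial or immature neural genes was at 0 in all samples of either group. The part of these cells in the levels of Vim, Nes, Synm, Plec and the lamins was not tested.

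The second comparison asks what differs in astrocytes of APP mice. No member passed between APP-GFP and WT-GFP astrocytes by limma (0 of 8 also at an unadjusted p of 0.05, and 0 by edgeR or DESeq2), where 2.23% of the 22969 genes tested passed, 1.66% as higher and 0.57% as lower. None stayed under 0.05 after adjustment (0.00435% of all genes) and none was free of overlap between the groups (0.313% of all genes). Fitted values of 7 members were above 0, with a median log2 fold change of 0.59 beside 0.09 over all genes, but every confidence interval included 0. Leaving out the 4 libraries of few genes gave 0 passing members again, but the signs did not hold. Fitted values were then above 0 for Gfap (0.12), Vim (0.38) and Plec (0.48). They were below 0 for Nes (-0.89), Synm (-2.47), Lmna (-0.069), Lmnb1 (-1.27) and Lmnb2 (-0.14). The 4 APP-GFP samples differed widely among themselves for several genes.

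Gfap levels in APP-GFP astrocytes were 9125, 27459.9, 21597 and 9425. Replicates 2 and 3 were above all 7 WT-GFP samples and replicates 1 and 4 were below all of them. The mean was 16902 ± 9127 (SD, n = 4) against 12064.5 ± 1946 (n = 7), a log2 fold change of 0.33 (95% confidence interval -0.27 to 0.93, exact permutation p = 0.309). Replicates 2 and 3 also had the highest microglial sums of all GFP+ samples, 84552 and 105287, against 18552 and 28548 in replicates 1 and 4 and 12963 to 48551 in WT-GFP. Their endothelial sums were 34899 and 20084, against 7630 and 6357 in replicates 1 and 4. GFP- cells, with microglial sums of 135743 and above, had at most 1302 of Gfap. With the mean microglial marker level as a covariate the Gfap difference was -0.0062. The part of other cells in the Gfap levels of replicates 2 and 3 was not tested further.

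Vim levels in APP-GFP astrocytes were 3047, 6337, 7153 and 6055, all within the WT-GFP range of 2366 to 7465. Its log2 fold change was 0.39 (95% confidence interval -0.33 to 1.11, exact permutation p = 0.327). Lmna levels were 516, 1763, 1298 and 1193, so that 3 samples were above the highest WT-GFP sample and replicate 1 was below the lowest. The fitted difference of Lmna was 0.32 on the log2 scale (95% confidence interval -0.39 to 1.03, exact permutation p = 0.358). Without APP-GFP replicate 1 Lmna passed as higher (0.68), and with the 4 libraries of few genes left out it was -0.069.

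The weakly read members spanned wide ranges in APP-GFP astrocytes. Nes had 67.0, 859.5, 360.1 and 92.4, Synm had 32.6, 393, 129.6 and 0, and Lmnb1 had 0, 116, 61.3 and 38.4. Replicate 2 was the highest for each of these 3 genes. Plec was at 155, 157 and 170.0 in replicates 1, 3 and 4 but at 0.949, a single read, in replicate 2. Lmnb2 was steady, with 262, 204, 176 and 257. The limma confidence intervals of Nes, Synm, Plec, Lmnb1 and Lmnb2 each included changes of more than 3-fold either way, from -2.61 to 4.19 for Nes and from -1.82 to 3.93 for Lmnb2 on the log2 scale, so differences of moderate size were not detectable here.

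The third comparison asks what SOCS3 changes in APP astrocytes. Gfap was lower in APP-SOCS3 than in APP-GFP astrocytes and was the only member of the 8 to pass, where 5.7% of the 22844 genes tested passed, 2.33% as higher and 3.37% as lower. Its levels in APP-SOCS3 astrocytes were 7580, 12887, 6077, 6804 and 5605. All but replicate 2 were below every APP-GFP sample. The mean fell 2.17-fold, from 16902 ± 9127 (SD, n = 4) to 7791 ± 2945 (n = 5), with a log2 fold change of -1.02 (SE 0.36, 95% confidence interval -1.80 to -0.23). The unadjusted limma p was 0.0155, the limma adjusted p = 0.647, and the exact permutation test gave p = 0.0794 (two-sided, 0.0159 at the smallest for 5 against 4 samples). No member stayed under 0.05 after adjustment (0.00438% of all genes) and none was free of overlap (2.01% of all genes). Leaving out APP-GFP replicate 3 ended the call of Gfap (-0.84), and without APP-GFP replicate 2, a library of few genes, it held with -0.73.

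Markers of other cell types fell with Gfap. All 14 microglial and all 13 endothelial genes passed as lower in APP-SOCS3, with 5 of 7 genes of perivascular macrophages, 5 of 10 of mural cells, 2 of 4 of fibroblasts, 3 of 9 tested of neurons, 1 of 6 of oligodendrocyte precursor cells and 1 of 9 tested of oligodendrocytes. Microglial sums were 9443 to 17801 in APP-SOCS3 against 18552 to 105287 in APP-GFP, and endothelial sums 1175 to 6822 against 6357 to 34899. None of the microglial or endothelial genes was at 0 in all samples of either group. None of 14 astrocyte markers passed, with sums of 743371 to 1124890 and 703985 to 906614. With the mean microglial or endothelial marker level as a covariate the Gfap difference was 0.22 or 0.038, the sign turned, and no member passed. Microglial sums did not overlap between the 2 groups and endothelial sums barely did, so these fits can hardly separate marker level from group. The part of these cells in the Gfap difference therefore cannot be told apart here.

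**Figure D3:**
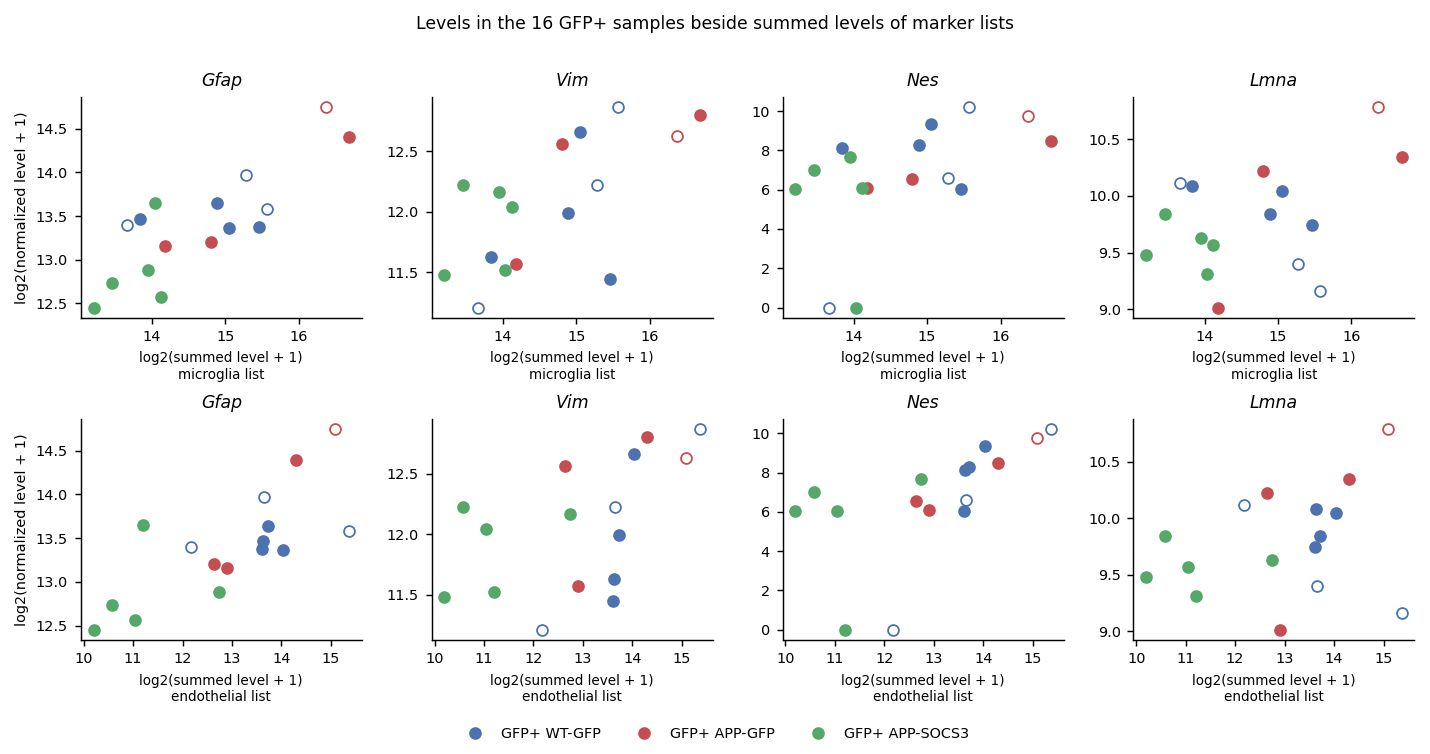
Each point is a GFP+ sample, with log2(summed level + 1) of the microglial (top) or endothelial (bottom) marker list on the horizontal axis and log2(level + 1) of Gfap, Vim, Nes or Lmna on the vertical axis, and open points are the 4 libraries with fewer than 20000 genes detected. APP-GFP replicates 2 and 3 stand at the upper right of the panel of Gfap and microglial markers, and APP-SOCS3 samples lie toward the left of every panel.

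Vim did not pass between APP-SOCS3 and APP-GFP astrocytes. Its levels were 4592, 2944, 4224, 4777 and 2854 in APP-SOCS3 and overlapped those of APP-GFP. Its fitted difference was -0.51 on the log2 scale (95% confidence interval -1.08 to 0.07, limma p = 0.0798, exact permutation p = 0.175). Without APP-GFP replicate 1, the sample with the lowest Vim of its group, Vim passed as lower (-0.78). The ratio of Gfap to Vim was 2.17 ± 1.25 (n = 5) in APP-SOCS3 and 2.98 ± 1.13 (n = 4) in APP-GFP astrocytes, a difference that did not pass (exact permutation p = 0.286), so a larger change of Gfap than of Vim was not shown.

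Lmna, at 792, 633, 758, 915 and 711 in APP-SOCS3 astrocytes, had the narrowest spread of any member in that group (CV 13.7%). Its log2 fold change against APP-GFP was -0.53 (95% confidence interval -1.21 to 0.16, limma p = 0.12, exact permutation p = 0.175). Lmna passed as lower by DESeq2 (-0.64) and without APP-GFP replicate 1 (-0.89). Lmnb2 was level between the groups, with 321, 170.2, 189, 159.8 and 331 in APP-SOCS3 and a log2 fold change of 0.0063 (95% confidence interval -0.73 to 0.74). Lmnb1 had 4.42, 0, 24, 35.3 and 0 (log2 fold change -2.08, exact permutation p = 0.27), and passed as lower without APP-GFP replicate 1 (-3.59).

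Synm was nearly unread in APP-SOCS3 astrocytes. Its levels were 0, 0.930, 6.00, 27.4 and 1.76, of which 3 rest on 3 reads or fewer, against 32.6, 393, 129.6 and 0 in APP-GFP. Its log2 fold change was -3.17 (95% confidence interval -6.90 to 0.56, limma p = 0.0886, exact permutation p = 0.159). Synm passed as lower by edgeR (-4.18), by DESeq2 (-4.26), with a pseudocount of 10 (-2.22) and without APP-GFP replicate 4 (-4.90). Nes had 203, 0, 66.0, 129 and 65.0 in APP-SOCS3 (log2 fold change -2.36, exact permutation p = 0.175). Plec had 108, 57.7, 182, 238 and 334 in APP-SOCS3, and its fitted difference was the most positive of the 8. Its log2 fold change of 1.55 (exact permutation p = 0.46) was -0.046 without APP-GFP replicate 2, where a single read was found.

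**Figure D4:**
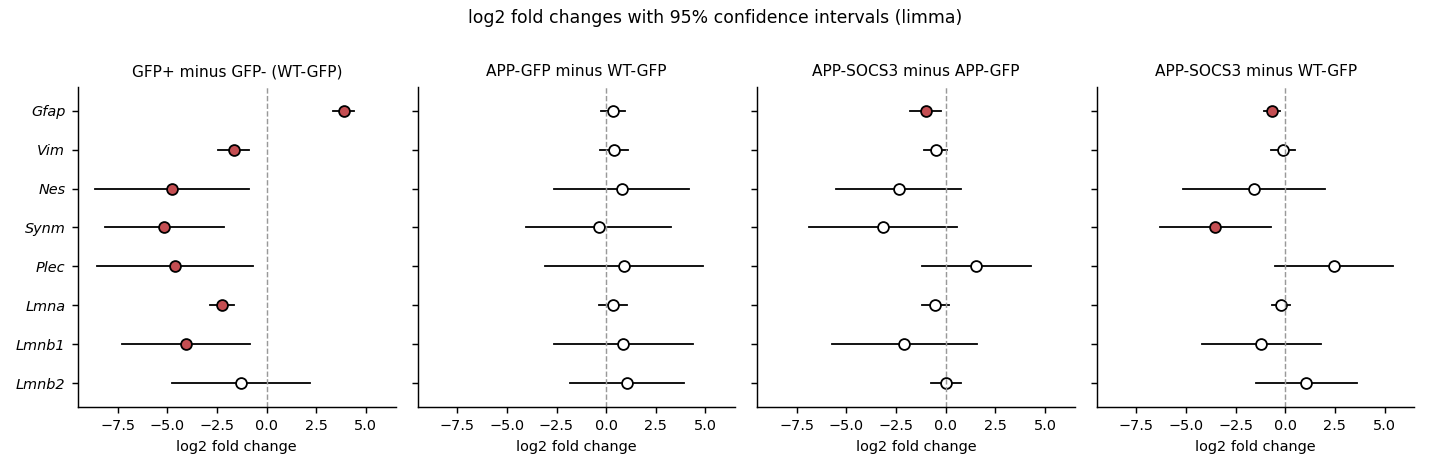
Points give log2 fold changes on the log2(level + 1) scale for the 4 comparisons and lines their 95% confidence intervals, and filled points mark genes past both thresholds (p 0.05, change 1.5-fold). Filled points number 7 in the first panel, 0 in the second, 1 in the third and 2 in the fourth, and Gfap, Vim and Lmna have the narrowest intervals in the first and last panels.

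APP-SOCS3 astrocytes were also set against WT-GFP astrocytes, a comparison that completes the 3 GFP+ groups and shares samples with those above. Gfap and Synm passed as lower, 2 of 8 members, where 5.21% of 22958 genes passed, 3.19% as higher and 2.02% as lower. No member stayed under 0.05 after adjustment (0.0305% of all genes) and none was free of overlap (0.566% of all genes). Without WT-GFP replicates 1, 2 and 3 Gfap (-0.60) and Synm (-4.49) again passed. Gfap was below the lowest WT-GFP level of 10570.4 in 4 of 5 APP-SOCS3 samples, and replicate 2 lay within the WT-GFP range. The mean was 1.55-fold lower (log2 fold change -0.68, SE 0.19, limma p = 0.00271, adjusted p = 0.364, exact permutation p = 0.0177). Leaving out APP-SOCS3 replicate 5 put the fold change under 1.5 (-0.58), and scaling to equal upper quartiles gave -0.34, which did not pass.

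Synm was read in 6 of 7 WT-GFP samples with more than 3 reads and in 2 of 5 APP-SOCS3 samples. Mean levels were 85.3 ± 60.9 (SD, n = 7) in WT-GFP and 7.23 ± 11.5 (n = 5) in APP-SOCS3, an 11.8-fold difference (log2 fold change -3.54, SE 1.30, limma p = 0.0167, adjusted p = 0.736, exact permutation p = 0.0379). The groups overlapped because WT-GFP replicate 3 had no read. Synm did not pass with a pseudocount of 0.1 (-4.06). Beside these results, 11 of 14 microglial and 10 of 13 endothelial genes passed as lower in APP-SOCS3 than in WT-GFP astrocytes, and 0 of 14 astrocyte markers passed. With the microglial or endothelial level as a covariate the Gfap difference was -0.43 or -0.35 and that of Synm -3.79 or -4.19, and neither gene passed. The part of these cells was not tested further.

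The other 6 members did not pass between APP-SOCS3 and WT-GFP astrocytes. Vim had a log2 fold change of -0.12 (95% confidence interval -0.72 to 0.48) and Lmna of -0.21 (-0.66 to 0.25), intervals that leave out a change of Vim or Lmna as large as 2-fold. Plec had 2.45 (-0.51 to 5.42, exact permutation p = 0.0934), with 2 of 7 WT-GFP samples at 0 and all 5 APP-SOCS3 samples at 57.7 or more. The Plec samples at 0 were WT-GFP replicates 1 and 3, both libraries of few genes, and the difference was 1.65 with either one left out and 0.43 without WT-GFP replicates 1, 2 and 3. Nes (-1.57), Lmnb1 (-1.21) and Lmnb2 (1.06) had intervals more than 5 wide on the log2 scale.

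Across the 16 GFP+ samples, with group means removed, members varied together in few pairs. Pearson's r of log2 levels was highest between Vim and Nes (0.71) and between Lmna and Lmnb1 (0.62), and lowest between Gfap and Plec (-0.51). Gfap and Vim had an r of 0.27. These values are descriptions over samples that share depth and library complexity, and the values of Nes, Lmnb1 and Plec include zeros. The samples also differ in endothelial markers. In WT-GFP the sample with the highest endothelial sum had the highest Vim and Nes. In APP-GFP and in APP-SOCS3 such a sample had the highest Nes but not the highest Vim. The part of other cells in these correlations was not tested. Of 12165 genes whose mean level reached 100, the 5 most like Gfap were C1ql1 (r = 0.86, also on the list of oligodendrocyte precursor markers), Ap2m1 (0.86), Gbp3 (0.85), Prmt7 (0.84) and Acsl5 (0.83). The 5 most like Vim were Pltp (0.93), Ifitm3 (0.91), Hspbp1 (0.90), Bok (0.90) and Capg (0.88). Picked as the highest of 12165 genes over 16 samples, these r values are inflated by selection, and none was tested.

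Genes that work with filaments and lamins were examined as 4 lists. In GFP+ astrocytes against GFP- cells, 5 of 13 tested genes of other intermediate filaments passed, all lower, and the list's median was -3.23 on the log2 scale beside -1.31 over all genes. These and the following counts stand beside 42.8% of all genes that passed in this comparison, 33.5% as lower. Desmin (Des), the muscle-type filament gene also found in mural cells, was at 97.6 ± 135 (SD, n = 7) in GFP+ and 2060.0 ± 131 (n = 3) in GFP- samples. Of 7 filament linkers 3 passed as lower, including Evpl (envoplakin, log2 fold change -5.74, limma adjusted p = 0.00487) and Itga6, an integrin subunit of hemidesmosomes (-2.26, limma adjusted p = 0.0386). Of 8 chaperones and modifiers 4 passed as lower and 1 as higher. Padi2, which citrullinates GFAP and vimentin, was the higher gene at 3963 ± 1006 in GFP+ and 1028 ± 520 in GFP- samples (limma adjusted p = 4.81e-04). The small heat shock protein Hspb1, a filament chaperone, was at 1211 ± 1344 in GFP+ and 13276 ± 1669 in GFP- samples (limma adjusted p = 0.00105).

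Of 22 partners of the lamina and nuclear envelope 9 passed as lower in GFP+ astrocytes and 1 as higher, with a list median of -0.75 on the log2 scale, a share close to that of all genes. The inner nuclear membrane proteins emerin (Emd, 8.30-fold), Lbr (6.38-fold) and Tmpo (3.25-fold) were higher in GFP- cells, as Lmna was. Tor1a, an ATPase of the envelope lumen, was 2.03-fold higher in GFP+ astrocytes (limma adjusted p = 0.0174).

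Between GFP+ groups few partners passed, 1 of 50 tested in APP-GFP against WT-GFP (2%), 3 of 51 in APP-SOCS3 against APP-GFP (5.88%) and 3 of 48 in APP-SOCS3 against WT-GFP (6.25%), shares near those of all genes. All had limma adjusted p-values above 0.05. In the first comparison the outer nuclear membrane protein gene Syne2 was lower in APP-GFP, at 83.0 ± 72.6 against 305 ± 246 (log2 fold change -2.54, exact permutation p = 0.0545). In the second, Hspb1 fell from 1190 ± 912 (SD, n = 4) to 184 ± 139 (n = 5), with a log2 fold change of -2.52 (exact permutation p = 0.0317). Ina, a neuronal filament gene, was lower too (-4.20, exact permutation p = 0.0476), and Lemd3, an inner nuclear membrane protein gene, was higher (2.73, exact permutation p = 0.0159). In the third, Hspb1 was again lower (-2.41, exact permutation p = 0.00758), while Padi2 was 1.53-fold higher (exact permutation p = 0.0328) and Sync, a desmin-associated filament gene, was higher (2.84, exact permutation p = 0.126). As given above, microglial and endothelial markers were lower in both comparisons in which Hspb1 was lower, and Hspb1 was highest in GFP- cells. The part of other cells in the Hspb1 differences was not tested.

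**Figure D5:**
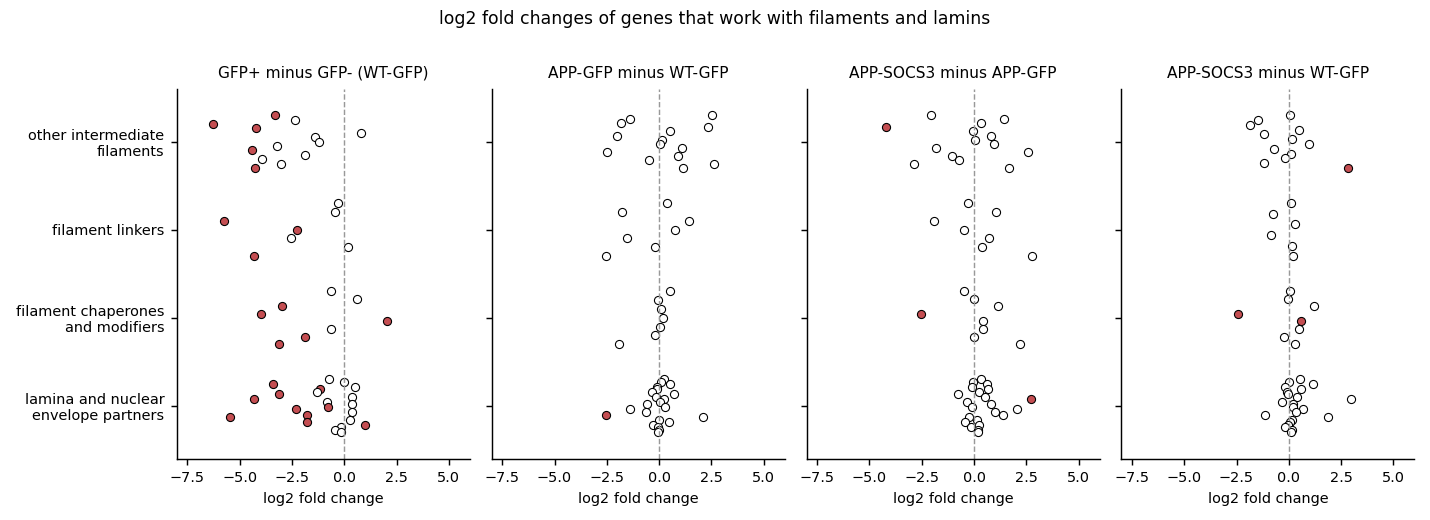
Points give the log2 fold change of each tested gene of the 4 partner lists in the 4 comparisons, and filled points mark genes past both thresholds (p 0.05, change 1.5-fold). In GFP+ against GFP- cells 21 filled points lie left of 0 and 2 right of it, and few points are filled in the other panels.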

How the data were processed

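RNA was amplified from few sorted cells with a SMARTer kit, Nextera libraries were sequenced, and, per the submitters' processing notes and the study's methods, reads were aligned to mm10 with STAR 2.4.0 and counted by the authors on constitutive gene regions. The deposited signal is gene counts that the authors divided by DESeq2 size factors. Division by the value of 1 read returned whole reads for 100% of values (within 0.01), which gave each sample's depth and the reads for edgeR and DESeq2. Amplification from few cells limits how many distinct RNAs a library holds, so weakly expressed genes can be at 0 at full depth. The kit does not mark strand. The Plec entry covers 18113 exon bases of Plec and 4275 of Parp10.

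Comparisons of log2(level + 1) were fitted by limma (version 3.58.1, R version 4.3.3) with its trended variance prior, on the 2 groups compared alone and on genes whose mean reached 10 in 1 of them. Each member also had a two-sided exact permutation test of its mean log2 level. The pseudocount understates changes of genes low in every sample, while samples at 0 can enlarge a fitted difference (Nes in GFP+ against GFP- cells was -4.77 by limma and -3.00 by edgeR). P-values of all genes were adjusted by Benjamini-Hochberg. The fits were also run on simulated reads, with changes put into 200 genes whose mean level was at least 100. The simulation used the same dispersion for every gene and no losses in amplification, so it does not speak for the weakly read members. No 2 samples of a group agreed within sampling noise (lowest chi-square per degree of freedom 35.0). Alternatives were pseudocounts of 0.1 and 10, no minimum or a minimum of 100, totals or upper quartiles made equal, a single fit of all 19 samples, sample weights, edgeR 4.0.16, DESeq2 1.42.0, the replicate block, adjusted p-values, microglial or endothelial markers as covariate, leaving out each sample, and, chosen after seeing the data, only libraries with at least 20000 genes detected. The study's thresholds were kept and were applied here to unadjusted p-values, since its methods do not say whether p-values were adjusted.

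The members, partner lists and marker lists were chosen with earlier results of these data known. Named were all 8 members, Socs3, App, of each partner list at most 5 genes that passed in a comparison, by smallest p, of marker lists the most abundant genes, and the 5 genes most like Gfap and Vim. Promoter windows are RefSeq's (GRCm38.p6), gene positions are those of the deposited table (mm10), and exon lengths are from GENCODE M21. The name of a further transgene of the APP mice and that of a marker gene are not reported here.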

Additional observations from a re-analysis of the deposited data

Results flagged for a closer look

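Of 24 sets of values checked (8 genes in 3 groups of GFP+ samples), 5 held a sample whose gap to its nearest neighbour took up more of the group's range than Dixon's critical value at 95%. For normally distributed values chance gives about 1 in 20, but the levels were checked without log transformation, so the rate here is not known. Gfap in WT-GFP replicate 3 was at 16031.7, above the next sample at 12801, and Gfap in APP-SOCS3 replicate 2 was at 12886.9, above the next at 7580.2. Synm in APP-SOCS3 replicate 4 was at 27.4449, above the next at 6.00. Plec in APP-GFP replicate 2 was at 0.948727, a single read, below the next at 155. Lmnb2 in WT-GFP replicate 2 was at 0, below the next at 189. WT-GFP replicates 2 and 3 and APP-GFP replicate 2 were among the libraries with fewer than 20000 genes detected, while both APP-SOCS3 replicates were not. Any part of library complexity in these values was not tested.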

How the results depend on the processing

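Of 764 values of members under alternatives, 683 kept their direction and side of the thresholds, 19 lost the call, 11 gained it and 51 turned sign. No member turned sign between GFP+ astrocytes and GFP- cells. There, 7 members passed, 4 with a pseudocount of 0.1 or with adjusted p-values, and 4 to 7 with 1 sample left out. Between APP-GFP and WT-GFP 0 passed, and 0 to 1 with 1 sample left out. Between APP-SOCS3 and APP-GFP 1 passed, 2 with a pseudocount of 10 or edgeR, 3 with DESeq2, 0 with adjusted p-values or either covariate, and 0 to 4 with 1 sample left out. Between APP-SOCS3 and WT-GFP 2 passed, 1 with a pseudocount of 0.1, a minimum level of 100 or equal upper quartiles, 0 with adjusted p-values or either covariate, and 1 to 3 with 1 sample left out. The causes were not tested.

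Turned values of APP-GFP against WT-GFP, as log2 fold changes, were -0.018 (Nes), -0.051 (Lmna) and -1.09 (Lmnb1) with sample weights, -0.069 (Nes) and 0.69 (Synm) by edgeR, -0.076 (Nes) and 0.71 (Synm) by DESeq2, 0.37 (Synm) with the replicate block, -0.0062 (Gfap), -0.57 (Nes) and -0.55 (Lmnb1) with the microglial covariate, -0.11 (Nes) with the endothelial one, and -0.89 (Nes), -0.069 (Lmna), -1.27 (Lmnb1) and -0.14 (Lmnb2) without the libraries of few genes. With 1 sample left out the ranges were -0.37 to 1.33 (Nes), -1.52 to 1.36 (Synm) and -0.071 to 1.30 (Lmnb2).

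Turned values of APP-SOCS3 against APP-GFP were -0.13 (Lmnb2) with sample weights, -0.14 (Lmnb2) with the replicate block, 0.22 (Gfap), 0.12 (Vim), -1.05 (Plec), 0.25 (Lmna), 1.14 (Lmnb1) and -0.40 (Lmnb2) with the microglial covariate, 0.038 (Gfap), 0.013 (Vim), -1.88 (Plec), 0.34 (Lmnb1) and -0.23 (Lmnb2) with the endothelial one, and -0.046 (Plec) and -0.034 (Lmnb2) without the libraries of few genes. With 1 sample left out the ranges were -0.046 to 2.11 (Plec) and -0.14 to 0.13 (Lmnb2).

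Turned values of APP-SOCS3 against WT-GFP were 0.23 (Vim) and 0.14 (Lmna) with equal upper quartiles, 0.22 (Vim) with sample weights, 0.20 (Vim) and -0.17 (Lmnb2) with the microglial covariate, 0.48 (Vim), 1.90 (Nes), 0.50 (Lmnb1) and -0.12 (Lmnb2) with the endothelial one, and -0.18 (Lmnb2) without the libraries of few genes. With 1 sample left out the ranges were -0.25 to 0.027 (Vim) and -0.065 to 1.30 (Lmnb2), and Nes passed without WT-GFP replicate 1 (-2.72).

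Correlations between the deviations of same-numbered samples of different groups ran from -0.18 to 0.24, and were not all above 0.1 in any comparison. With so few samples per group they can neither show nor exclude a pairing, and the labels tie no sample to a mouse. With the replicate block 7, 0, 1 and 2 members passed, but in the last comparison Synm (-3.36) was replaced by Plec (3.25).

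Counts over all genes moved by more than 1.5 times as follows. The 11419 of GFP+ against GFP- cells became 6709 with a minimum of 100. The 513 of APP-GFP against WT-GFP became 817 with no minimum, 123 with a minimum of 100, 991 with all samples in 1 fit, 1100 with sample weights and 1 with adjusted p-values. The 1301 of APP-SOCS3 against APP-GFP became 650 with a minimum of 100, 1 with adjusted p-values, 516 with the microglial and 650 with the endothelial covariate. The 1197 of APP-SOCS3 against WT-GFP became 441 with a minimum of 100, 2589 with sample weights, 7 with adjusted p-values and 654 with the microglial covariate. Without the libraries of few genes 23, 3, 5 and 7 partner genes passed in the 4 comparisons, against 23, 1, 3 and 3. Genes under a minimum of 100 gave no value there. A level of 0 allows up to 3.53 (3 reads) by counting error only, and losses before sequencing can hide higher levels. In 4 of 16 GFP+ libraries few genes were detected. Both limit statements on Nes, Synm, Plec, Lmnb1 and Lmnb2.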
